A study of Hordeum vulgare with 10 samples.

Results

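Barley grain that had been stored for equally long, but had kept very different viability, was compared for its small RNA. Seeds of cv. Damazy from a single lot were stored from 1972 to 2018 in separate sealed flasks. Seeds of low viability (Lv) germinated at 2% and seeds of high viability (Hv) at 86.7% at the end of storage. The embryo and scutellum of dry seeds were sequenced as small RNA in 3 libraries of Lv and 3 of Hv, all 6 of which were used here out of 9 libraries in the count table. The table lists 142 miRNAs, of which 61 are known and 81 are predicted (named hvu-new), and all 142 were compared. The third group, Rc (regenerated seeds), was field-grown from the high-viability seeds. It was no side of the comparison, but entered the scaling of library sizes, the estimate of the spread between libraries and the filter on low counts. The replicates of each stored group are seeds from 1 flask. The Lv flask had the higher seed moisture by the study's account, so viability, flask and moisture cannot be told apart. The p-values measure the spread between samples of a flask, not between flasks. In the edgeR fit that spread also takes in the Rc libraries. All 3 Lv libraries came from sequencing run 2, as did Hv replicate 3, whereas Hv replicates 1 and 2 came from run 1.

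MicroRNAs are short RNAs that an Argonaute protein carries to messenger RNAs with matching sequence, which are then cleaved or held back from translation. In plants they are cut from hairpin precursors by a Dicer-like enzyme, and cuts at neighbouring positions, or later trimming, leave isomiRs, which are forms that differ by a base or a few at their ends. A dry seed holds RNA made while it matured on the mother plant, since a dry embryo makes very little RNA of its own. Several plant families present here act in embryos and seedlings, such as miR156 with SPL transcription factors, miR159 with GAMYB factors of the gibberellin and abscisic acid response, miR166 with HD-ZIP III factors, miR168 with AGO1 and miR171 with GRAS-domain regulators.

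The sequences on which the comparison turned are shown 5′ to 3′ with bases 2 to 8 (the seed) in capitals. They were read from the study's supplementary tables and written with U for T. The first set holds predicted miRNAs at the extremes of the comparison, beside the partner that shares the locus for hvu-new22, hvu-new41 and hvu-new2, and beside a similar sequence from another locus for hvu-new69.
hvu-new22: cUGGCAACaaauuagagucucu
hvu-new21: cUGGCAACaaauuagagucuc
hvu-new41: uCCCAACGggcggugggcua
hvu-new24: cUUCCCAAcgggcggugggcua
hvu-new2: aAGUCCUCguguugcauuccu
hvu-new5: aGUCCUCGuguugcauuccu
hvu-new69: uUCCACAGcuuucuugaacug
hvu-new40: uCCACAGGcuuucuugaacug
hvu-new28: gCCGACCUagcucaguggua
hvu-new66: uUAAAUUUcuccauagcauca
hvu-new26: gAGGGCGGcgauaacauuuuc

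hvu-new22 is hvu-new21 with 1 more base at the 3′ end and the same seed. hvu-new41 is hvu-new24 without its first 2 bases, and hvu-new5 is hvu-new2 without its first base, so that the seed of each partner is shifted. hvu-new69, which the study assigned to the miR396 family (known for GRF transcription factors), shares its last 14 bases with hvu-new40 and differs in its seed. The second set holds the abundant families, whose members share a seed and differ mostly at the 3′ end.
miR156.4: uGACAGAAgagagugagca
miR156.5: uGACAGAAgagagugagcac
miR156.6: uGACAGAAgagagugagcaca
miR159.4: uUUGGAUUgaagggagcuc
miR159.5: uUUGGAUUgaagggagcucu
hvu-new80: uUUGGAUUgaagggagcucug
miR166.5: uCGGACCAggcuucauucc
miR166.6: uCGGACCAggcuucauuccc
miR166.7: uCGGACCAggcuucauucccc
miR168.9: uCGCUUGGugcagaucggga
miR168.10: uCGCUUGGugcagaucgggac
hvu-new49: uGAAGCUGccagcaugaucu
hvu-new52: uGAAGCUGccagcaugaucuga

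On the genome build Hv_IBSC_PGSB_v2, hvu-new22 lies on the minus strand of chromosome 6H at 42339562 to 42339583. hvu-new41 lies on the plus strand of 6H at 279589722 to 279589741, inside the span of hvu-new24. hvu-new2 lies on the plus strand of 5H at 137203136 to 137203156, and hvu-new5 within it. hvu-new28 lies on the plus strand of 4H at 614211929 to 614211948. No annotation of that build was used here, so whether these loci fall in genes is not given. Predicted miRNAs that repeat a known one are counted a second time in the table. hvu-new43, hvu-new45, hvu-new54 and hvu-new81 have the sequences of miR168.10, miR166.7, miR156.5 and miR5051.4, and hvu-new80 holds 4 times the counts of miR159.6 in each library. These 5 are not evidence apart from their known partners.

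The Lv libraries held 3966, 10353 and 11209 counts and the Hv libraries 4179, 9470 and 14618, so that the smallest and largest library of each group differed several-fold and scarce miRNAs had only a few counts. Known miRNAs took 940 to 2672 counts of a library in Lv and 1013 to 3858 in Hv. A count of 0 over the 3 libraries of a group allows a share of up to 0.0118% of the counts in Lv and 0.0106% in Hv. These limits cover counting error only, since reads from a PCR library are not independent molecules. They also take a 0 to mean that no read was sampled. For predicted miRNAs this need not hold, since many were at 0 in single libraries despite clear counts in others.

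No miRNA passed the test between Lv and Hv in either direction, and most of the abundant ones differed by less than 2-fold at either end of their 95% interval. In samples of whole embryo and scutellum, fewer cells of a type and less RNA per cell cannot be told apart. No miRNA marks these tissues by itself, so the tissue label was not checked. The test covered 99 miRNAs, those whose counts summed to 10 or more across all 9 libraries, and 0 had an adjusted p under 0.05 in edgeR's quasi-likelihood test with Benjamini-Hochberg adjustment (0% of those tested), and the smallest adjusted p was 0.670. At an unadjusted p under 0.05 there were 5 miRNAs, and DESeq2 gave 0 calls with 3 miRNAs under 0.05 unadjusted. Among the 99, 4 were at 0 in all 6 stored libraries and entered only through Rc. The fitted value was higher in Lv for 43 miRNAs and higher in Hv for 52, with a median log2 fold change of -0.03 (Lv over Hv). For known miRNAs the split was 12 higher in Lv and 16 higher in Hv, with a median of -0.02. For predicted miRNAs it was 31 and 36, with a median of -0.11.

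**Figure D1:**
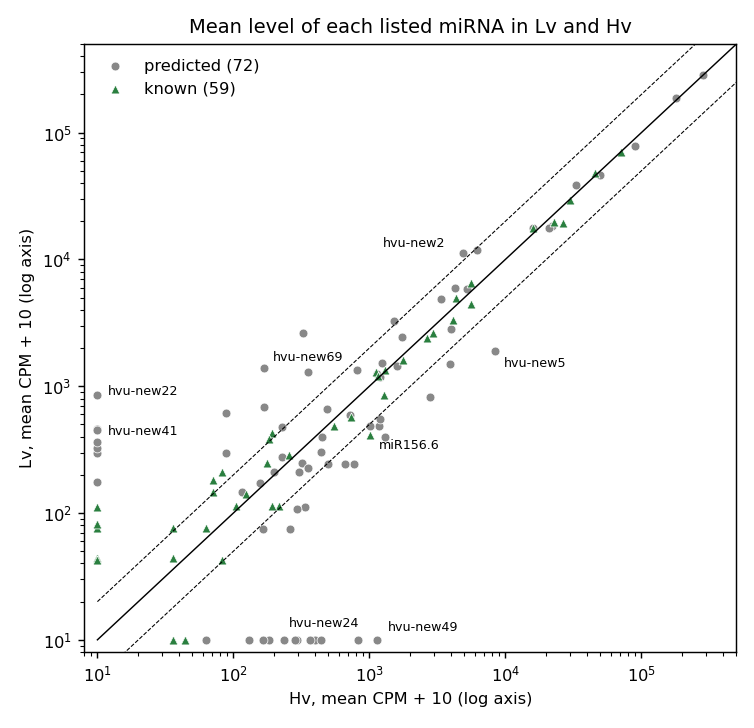
Mean CPM + 10 of the 131 miRNAs with a count in a stored library, Hv on the horizontal and Lv on the vertical axis, both logarithmic. The solid line marks equal means and the dashed lines a 2-fold difference. Abundant miRNAs lie near the line of equality, and miRNAs at 0 in 1 group, such as hvu-new22 and hvu-new49, lie along the edges.

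How close the groups were could be bounded only for abundant miRNAs. The bounds are relative to the other miRNAs of a library, so a change common to all of them would not show. CPM here is the count relative to the TMM-scaled library size, as CPM is usually defined, and the 95% interval of a log2 fold change lay wholly within a 2-fold difference for 14 of the 80 miRNAs with counts in both groups, 3 of which repeat a known one (hvu-new45, hvu-new54 and hvu-new80). Of the 14 miRNAs with a mean of 100 counts or more per stored library, 12 were bounded in this way, whereas of the 28 with a mean under 5 counts it was 0. The median standard error (SE) was 0.24 in the first of these classes and 1.68 in the second, on the log2 scale.

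The tightest bound on a known miRNA was that on miR166.7, the full-length form of a family that acts on HD-ZIP III factors. It had 189, 517 and 505 counts in Lv and 191, 423 and 640 in Hv. The groups overlapped on TMM-scaled sizes, but not with library sizes from relative log expression. The log2 fold change was 0.07 (SE 0.16) with an interval from -0.29 to 0.43. Its repeat hvu-new45 had an interval from -0.26 to 0.36, but its counts were 4 times those of miR166.7, once for each of its 4 loci, in 8 of 9 libraries. Whether such counts are reads multiplied by the number of loci was not tested, and the narrower interval is no added precision if they are.

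The most abundant known miRNA, miR159.6, had 222, 768 and 878 counts in Lv and 259, 675 and 1112 in Hv. Its log2 fold change was -0.01 (SE 0.25, interval -0.58 to 0.55). The 20-base form miR156.5 had 94, 188 and 197 counts in Lv and 94, 193 and 346 in Hv, and its log2 fold change was -0.21 (SE 0.19, interval -0.63 to 0.21). Neither form separated the groups. With run as a covariate the log2 fold changes were -0.31 for miR159.6 and -0.48 for miR156.5, and neither was called.

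Among predicted miRNAs that repeat no known one, hvu-new74 was the most abundant. It had 145, 481 and 591 counts in Lv and 217, 529 and 591 in Hv, with a log2 fold change of -0.11 (SE 0.21, interval -0.59 to 0.38). hvu-new62 had 65, 216 and 172 counts in Lv and 86, 188 and 306 in Hv, and its log2 fold change was -0.24 (SE 0.24, interval -0.77 to 0.30). hvu-new46, which shares the seed of miR166, had 82, 228 and 128 counts in Lv and 70, 159 and 205 in Hv, with a log2 fold change of 0.16 (SE 0.29, interval -0.49 to 0.81). All of these lay within a 2-fold difference. hvu-new40 did not, since its 98, 67 and 276 counts in Lv spread more widely than the 112, 226 and 227 in Hv (log2 fold change -0.26, SE 0.43, interval -1.23 to 0.71).

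**Figure D2:**
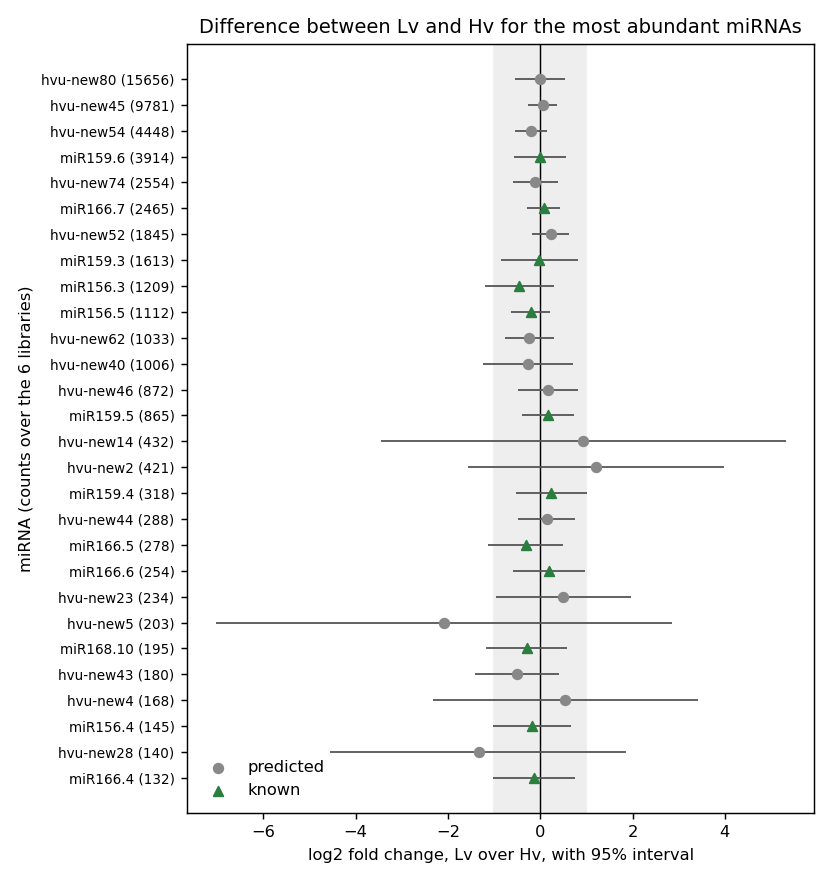
Log2 fold change of Lv over Hv (horizontal axis) with its 95% interval for the 28 miRNAs with a mean of at least 20 counts per stored library and counts in both groups, ordered by total count, which stands in parentheses. The grey band marks a 2-fold difference. All 28 intervals include 0, and the long intervals of hvu-new14, hvu-new2, hvu-new5, hvu-new4 and hvu-new28 belong to miRNAs at 0 in at least 1 library.

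The levels of 8 of the 99 miRNAs did not overlap between groups. In 5 the lowest Lv library stood above the highest Hv library (5.05% of those tested), and in 3 the lowest Hv library stood above the highest Lv library (3.03%). The first 5 were hvu-new2, hvu-new22, hvu-new41, hvu-new66 and hvu-new69. The other 3 were hvu-new26, hvu-new43 and miR156.6, the only known miRNA among the 8. With library sizes from relative log expression the count was 9. These included miR166.7, its repeat hvu-new45 and miR156.3, but not hvu-new2 or hvu-new43. With library sizes set to all mapped reads, the count fell to 5, which were hvu-new22, hvu-new41, hvu-new69, miR156.3 and miR156.6. Within run 2, where Hv has a single library, 33 of the 99 did not overlap.

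hvu-new22 had the smallest p of the comparison. It had 2, 15 and 6 counts in the Lv libraries and 0 in each Hv library. With 3 counts over the Hv libraries in place of 0, the ratio of Lv to Hv was 8.49. That value allows for counting error of the 0 alone. It does not allow for the spread between libraries or for gaps in the listing of predicted miRNAs, so it is no lower bound. The adjusted p of hvu-new22 was 0.670 (edgeR, unadjusted p = 0.00772). Over its alternatives the adjusted p ran from 0.107 (DESeq2) to 1 (without Hv replicate 2, and with the replicate number as a block). The form without its last base, hvu-new21, went the other way, with 0 counts in Lv and 0, 2 and 2 in Hv. Summed over their shared locus, the 2 forms had 2, 15 and 6 counts in Lv and 0, 2 and 2 in Hv, which was a log2 fold change of 2.53 (SE 1.22, unadjusted p = 0.0576 in edgeR).

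hvu-new41 was also listed in all 3 Lv libraries and in no Hv library, with 2, 5 and 4 counts. Against the same limit the ratio of Lv to Hv was 4.06, again no lower bound, and the adjusted p was 0.670 in edgeR. The form with 2 more bases at its 5′ end, hvu-new24, was listed only in Hv, with 10, 0 and 3 counts against 0 in each Lv library. The locus as a whole had 2, 5 and 4 counts in Lv and 10, 0 and 3 in Hv, a log2 fold change of -0.76 (SE 1.64). The locus thus did not separate the groups, while each of its forms was listed in 1 group alone. hvu-new22 and hvu-new41 were the only miRNAs listed in every library of 1 stored group and in none of the other, and no miRNA was listed so in Hv.

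hvu-new69, which the study assigned to miR396, had 8, 10 and 14 counts in Lv and 0, 0 and 6 in Hv. The Lv levels, 1371 ± 355 CPM (SD, n = 3), stood above those in Hv, 157 ± 273 CPM (SD, n = 3). The log2 fold change was 2.80 (SE 1.12) with an adjusted p of 0.670 in edgeR. Over the alternatives the adjusted p ran from 0.0461 to 1. The lowest came without Hv replicate 3, the only Hv library that lists it and the only one from run 2. Within run 2 the log2 fold change was 1.49, and with run as a covariate its direction was the same (adjusted p = 0.933, edgeR). The similar sequence hvu-new40 was more abundant, with 98, 67 and 276 counts in Lv and 112, 226 and 227 in Hv. Its groups overlapped (log2 fold change -0.26, SE 0.43), so the separation of hvu-new69 did not extend to hvu-new40. Whether hvu-new40 belongs to the same family was not tested.

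hvu-new2 had 66, 109 and 87 counts in Lv and 0, 81 and 78 in Hv. The log2 fold change was 1.20 (SE 1.16, interval -1.56 to 3.97), the wide interval coming with the library at 0. hvu-new5, which starts 1 base later, had 0, 0 and 58 counts in Lv and 97, 0 and 48 in Hv. Where hvu-new2 was at 0, in Hv replicate 1, hvu-new5 was at its highest. The sum over the locus was 66, 109 and 145 counts in Lv and 97, 81 and 126 in Hv. Its log2 fold change was -0.02 (SE 1.05, from a spread that takes in Rc). The separation seen for hvu-new2 was thus not present in the locus.

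hvu-new66 had 14, 19 and 24 counts in Lv and 8, 18 and 20 in Hv. Its levels were 2435 ± 551 CPM in Lv and 1728 ± 144 CPM in Hv (SD, n = 3), a log2 fold change of 0.49 (SE 1.06). It was listed in each stored library but in 8 of the 9 libraries, so that an Rc library at 0 entered this SE. hvu-new26 had 0, 3 and 4 counts in Lv and 2, 7 and 14 in Hv, with a log2 fold change of -1.57 (SE 1.00). hvu-new43 had 10, 28 and 35 counts in Lv and 17, 46 and 44 in Hv, with a log2 fold change of -0.50 (SE 0.40). The known entry with the same sequence as hvu-new43, miR168.10, had 14, 28 and 42 counts in Lv and 17, 46 and 48 in Hv, and its groups overlapped. None of the 3 intervals left out 0.

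**Figure D3:**
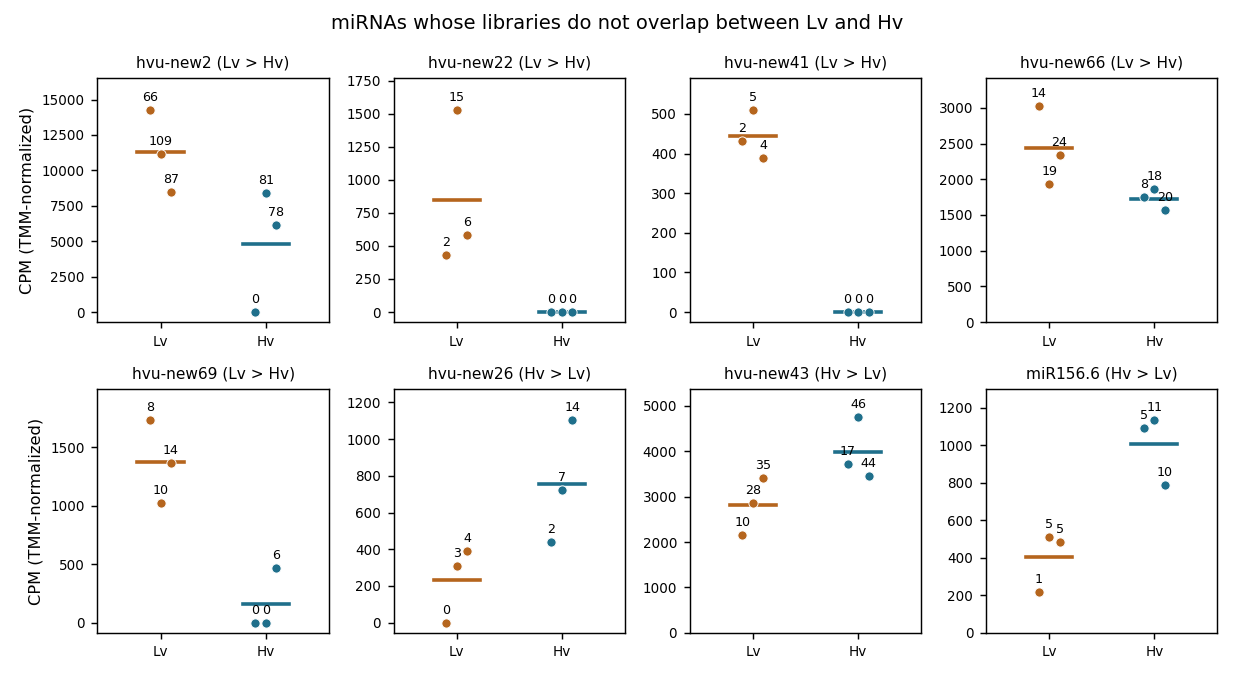
CPM of the 8 miRNAs whose libraries did not overlap between Lv (brown) and Hv (blue), 1 point per library in the order of the replicate numbers, with the count printed above it and the mean as a bar. Each panel has its own vertical axis. In hvu-new2 and hvu-new69 the lowest Hv libraries are at 0, and in hvu-new66 the groups are close.

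Among the miRNAs lower in Lv, hvu-new49 had the smallest p, at 0.0374 unadjusted in edgeR, with an adjusted p of 0.670. Its 33 counts all came from Hv replicate 2, and it was at 0 in the other 5 libraries. It belongs to 5 predicted forms, hvu-new49 to hvu-new53, which the study assigned to miR167, known for the auxin response factors ARF6 and ARF8, and which share the seed GAAGCUG. hvu-new52, the most abundant of them, had 195, 390 and 354 counts in Lv and 135, 390 and 381 in Hv, with a log2 fold change of 0.22 (SE 0.18, interval -0.18 to 0.62). Summed, the 5 forms had 226, 439 and 369 counts in Lv and 147, 445 and 424 in Hv, and their log2 fold change was 0.19 (SE 0.20, interval -0.26 to 0.65). The family was thus bounded within a 2-fold difference, although 1 of its forms was among the extremes.

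The remaining miRNAs with the smallest p were at 0 in every library of 1 group. In Lv alone, hvu-new77 had 2, 5 and 0 counts and hvu-new9 had 4, 0 and 2. In Hv alone, hvu-new35 had 0, 6 and 3 counts, hvu-new68 had 3, 4 and 0, and hvu-new25 had 3, 5 and 0. The longer hvu-new10, which shares its start with hvu-new9, had 0, 7 and 7 counts in Lv and 3, 0 and 0 in Hv. Taken as a locus, hvu-new9 and hvu-new10 had a log2 fold change of 2.17 (SE 1.70). Of the other miRNAs that the study singled out, hvu-new48 had 8 counts, all in Hv replicate 2, and hvu-new60 was at 0 in all 6 libraries.

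hvu-new28 passed the threshold under a single alternative, when Lv replicate 3 was left out (adjusted p = 0.0136 in edgeR, up to 1 under others). It had 0, 0 and 46 counts in Lv and 24, 41 and 29 in Hv. With all libraries its log2 fold change was -1.34 (SE 1.41) and its adjusted p 0.986. Lv replicate 3 stood within the range of Hv, at 4478 CPM, whereas the other 2 Lv libraries were at 0.

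Predicted miRNAs were often missing from single libraries of a group that otherwise held them at a clear level. Where listed, 30 predicted miRNAs reached a median of 10 counts or more, and 16 of these were nevertheless at 0 in 1 or more of the 6 libraries. Of 15 known miRNAs at such a level it was 0. The smallest count above 0 was 2 for a predicted miRNA and 1 for a known one. hvu-new14, for example, had 102, 0 and 139 counts in Lv and 0, 136 and 55 in Hv. With such gaps, hvu-new14 had an SE of 1.93 at a total of 432 counts, whereas hvu-new46, without a gap, had 0.29 at 872.

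Presence in only 1 group was equally frequent on both sides among known miRNAs. Of the 61 known, 35 had a count in both groups, 12 only in Lv and 12 only in Hv, and 2 in neither. Of the 12 found only in Lv, 9 had a single count and the largest total was 3. All 12 found only in Hv had a single count. Of the 81 predicted, 53 had counts in both groups, 7 only in Lv and 12 only in Hv, and 9 in neither. In every library were 21 known and 16 predicted miRNAs.

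The known families were compared by the sum of their isomiRs. Of the 13 families, 9 had at least 10 counts over the 6 libraries, and 0 of the 9 had an adjusted p under 0.05 in exact two-sided permutation tests, where 3 libraries against 3 allow no p below 0.1. The miR156 and miR171 families did not overlap between groups (each exact permutation p = 0.1, adjusted 0.45 over the 9 families).

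The miR156 family, which restrains SPL factors, was lower in Lv. Its levels were 41744, 41037 and 43125 CPM in Lv and 51701, 44517 and 62941 CPM in Hv. That was 41969 ± 1062 CPM in Lv and 53053 ± 9286 CPM in Hv (SD, n = 3), a difference of -0.32 on the log2 scale. The groups overlapped when library sizes came from relative log expression or from mapped reads. Within run 2, 3 Lv libraries against Hv replicate 3 gave -0.58. Of its abundant forms, miR156.3 had 85, 182 and 217 counts in Lv and 125, 200 and 400 in Hv (log2 fold change -0.45, SE 0.33), and miR156.4 and miR156.5 had log2 fold changes of -0.17 and -0.21. miR156.6, the 21-base form, had 1, 5 and 5 counts in Lv and 5, 11 and 10 in Hv, with a log2 fold change of -1.24 (SE 0.64) and an adjusted p of 0.670 in edgeR.

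The miR171 family, which acts on GRAS-domain regulators, was higher in Lv. It had 5, 6 and 9 counts in Lv and 0, 5 and 5 in Hv. In CPM this was 857 ± 235 in Lv and 303 ± 270 in Hv (SD, n = 3). The groups did not overlap under any of the 3 normalizations. The size of the difference rested on the library at 0, since it was 3.83 on the log2(CPM + 1) scale and 0.89 without Hv replicate 1.

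The 2 most abundant families had like means. The miR159 family was at 124293 ± 23941 CPM in Lv and 122589 ± 30902 CPM in Hv (SD, n = 3), a log2 difference of 0.03. The miR166 family was at 59523 ± 7450 CPM and 57854 ± 7881 CPM, a log2 difference of 0.04. The miR168 family, which keeps AGO1 in check in A. thaliana, was at 5757 ± 1388 CPM in Lv and 6665 ± 1486 CPM in Hv, a log2 difference of -0.22, and its groups overlapped. Against Hv replicate 3 alone, the difference was -0.37 for miR159, -0.17 for miR166 and -0.31 for miR168.

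Families known from grasses or barley had lower mean levels than miR156, miR159 and miR166, although miR5048 and miR5051 stood above miR171. The miR5048 family had 18, 46 and 57 counts in Lv and 24, 30 and 75 in Hv, and the miR5051 family had 7, 14 and 16 in Lv and 5, 21 and 13 in Hv. Their log2 differences were 0.03 and 0.16. The miR444 family, which in monocots acts on MADS-box factors, had 2, 1 and 2 counts in Lv and 0, 2 and 3 in Hv, and the miR6201 family had 1, 3 and 1 in Lv and 0, 0 and 9 in Hv. At such counts no difference was detectable. miR397, miR1120, miR5049 and miR6200 had fewer than 10 counts each over the 6 libraries, among them a single count of the laccase regulator miR397, in Hv replicate 2.

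**Figure D4:**
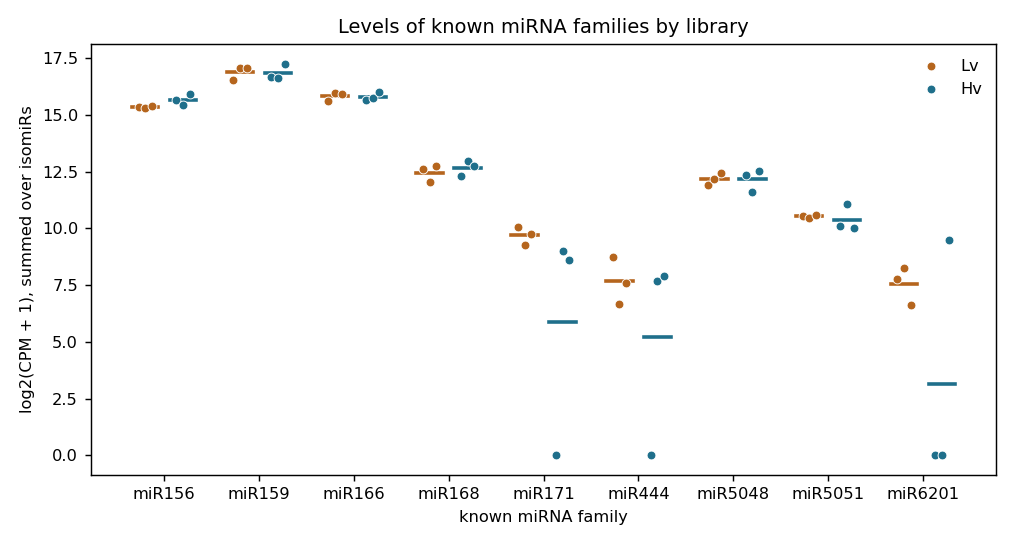
Level of the 9 tested families as log2(CPM + 1) of their summed isomiRs (vertical axis), 1 point per library in the order of the replicate numbers, Lv in brown and Hv in blue, with the mean as a bar. The abundant families stand at like heights in both groups, and the points at 0 for miR171, miR444 and miR6201 are Hv libraries without a count.

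Summed over all known miRNAs, the level was 203315, 254388 and 260112 CPM in Lv and 221920, 216697 and 303533 CPM in Hv. The groups overlapped, with a log2 difference of -0.04 (exact permutation p = 0.9, two-sided). The share of counts in predicted miRNAs was 76.1% ± 0.2 (SD, n = 3) in Lv and 75.7% ± 2.1 in Hv, a difference of 0.39 percentage points (exact permutation p = 0.7). Without the 5 predicted miRNAs that repeat a known one, this share was 46.9% ± 4.0 in Lv and 45.6% ± 7.1 in Hv (exact permutation p = 0.8). No shift between known and predicted miRNAs was detectable.

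Loss of bases from the 3′ end was compared as the ratio of a shorter isomiR to a longer one within each library, which needs no normalization. Of 8 pairs with enough counts, 0 had an adjusted p under 0.05 in exact permutation tests, each with an adjusted p of 0.8. In miR156, the 19-base form was at 0.138, 0.138 and 0.122 of the 20-base form in Lv and at 0.128, 0.135 and 0.127 in Hv, a log2 difference of 0.03. The miR156 ratio was thus close to constant over all 6 libraries.

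In miR159, the 19-base form was at 0.277, 0.429 and 0.412 of the 20-base form in Lv and at 0.375, 0.264 and 0.384 in Hv, a log2 difference of 0.12. miR159.5 over miR159.6 was 0.276 ± 0.128 in Lv and 0.227 ± 0.045 in Hv (SD, n = 3). The Lv values of this ratio were spread by replicate 1, at 0.423, against 0.203 and 0.202 in the others. No sequence was found for miR159.6. In the ratios it was taken to be the 21-base sequence of hvu-new80, whose counts are 4 times those of miR159.6.

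Of the 8 pairs, miR166.5 over miR166.6 alone did not overlap between groups. The 19-base form was at 0.850, 0.755 and 1.06 of the 20-base form in Lv and at 1.06, 1.56 and 1.22 in Hv, so that the shorter form was relatively less abundant in Lv, by -0.53 on the log2 scale (exact permutation p = 0.1, adjusted 0.8), and lower in Lv than in Hv replicate 3 by -0.48 within run 2. The other step of the same family went the other way, with miR166.6 over miR166.7 at 0.105 ± 0.002 in Lv and 0.095 ± 0.022 in Hv (SD, n = 3). For miR168.9 over miR168.10 the lowest and highest ratios were 0.321 and 0.786 in Lv, and 0.176 and 0.625 in Hv. miR159.4 over miR159.6 differed by 0.33, miR168.9 over miR168.10 by 0.26 and miR166.5 over miR166.7 by -0.35 on the log2 scale. In all, the ratio was higher in Lv for 6 of the 8 pairs and lower for 2, both with miR166.5 as the shorter form, and pairs of a family share forms. Below the minimum of 50 counts, 2 further pairs did not overlap and went the opposite way to miR166.5, with miR156.4 and miR156.5 each relatively higher in Lv against miR156.6 (log2 differences 1.23 and 1.20, each exact permutation p = 0.1). Both rest on the 37 counts of miR156.6.

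**Figure D5:**
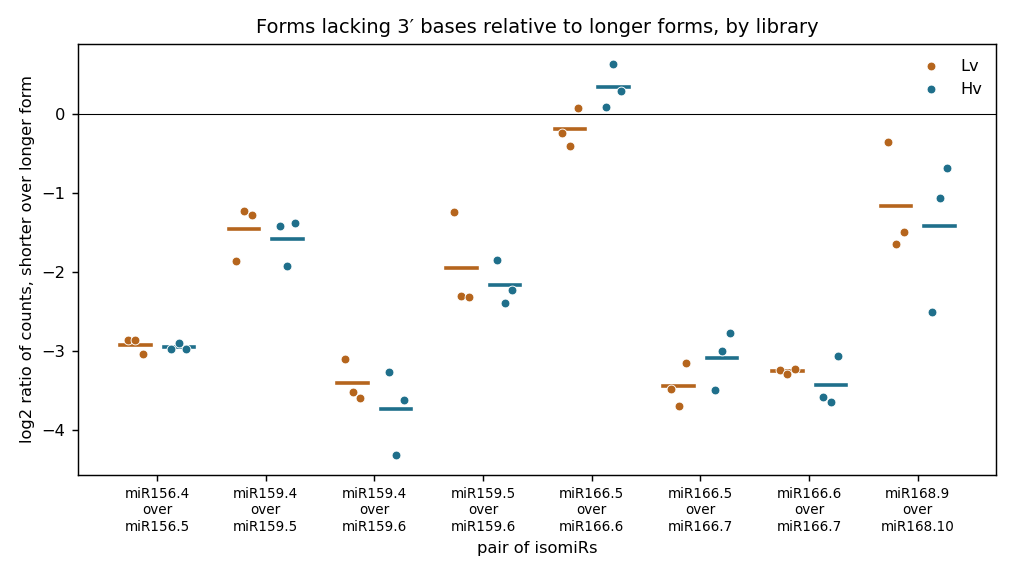
Log2 ratio of counts of the shorter over the longer isomiR (vertical axis) for 8 pairs, 1 point per library in the order of the replicate numbers, Lv in brown and Hv in blue, with the mean as a bar. Of these pairs, only miR166.5 over miR166.6 shows no overlap, with the Lv points below those of Hv.

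Sequence features were set against the difference between the groups. Over 43 miRNAs with a known sequence, counts in both groups and a mean of at least 5 counts per library, the log2 fold change had a Pearson correlation of -0.11 with GC content, 0.02 with the number of A or U among the last 5 bases and 0.16 with length (Spearman -0.11, 0.05 and 0.24). These are correlations across miRNAs of the same 6 libraries, which are not independent replicates. Among predicted miRNAs that repeat no known one, forms of 21 bases took 43.5% ± 3.7 of the counts in Lv and 41.8% ± 4.1 in Hv, and forms of 22 bases took 45.2% ± 7.3 in Lv and 43.7% ± 1.2 in Hv (SD, n = 3).

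Some predicted miRNAs have loci close to each other. Whether these loci are annotated as rRNA or as other genes was not checked. On 5H, hvu-new4, hvu-new7, hvu-new13, hvu-new19 and hvu-new23 have loci within 233 kb. Their summed counts were 94, 93 and 100 in Lv and 78, 84 and 97 in Hv, which in CPM were 20331, 9494 and 9735 in Lv and 17088, 8676 and 7632 in Hv. Replicate 1, the shallowest library of each group, was the highest, and the groups overlapped (log2 difference 0.24, exact permutation p = 0.5). hvu-new4 had 50, 0 and 39 counts in Lv and 24, 16 and 39 in Hv, and hvu-new23 had 27, 93 and 24 in Lv and 36, 21 and 33 in Hv. On 2H, hvu-new3, hvu-new17 and hvu-new30 have loci within 232 kb, and their summed counts were 0, 38 and 30 in Lv and 17, 32 and 0 in Hv. These members were chosen for their position after their values were seen.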

How the data were processed

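The authors removed adapters, low-quality reads and rRNA and tRNA reads, kept reads of miRNA length, aligned the rest to the barley genome and deposited raw counts of 142 miRNAs in 9 libraries. Known miRNAs came from miRProf and predicted ones from miRCat. The 9 deposited normalized columns were not used, nor were the authors' fold changes, p-values and dispersions, which hold their comparison of stored with regenerated seeds.

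From the counts, edgeR 4.0.16 (R 4.3.3) fitted all 3 groups after TMM scaling, keeping miRNAs that summed to 10 counts or more across all libraries. Lv was tested against Hv with the quasi-likelihood test and Benjamini-Hochberg adjustment at 0.05. Forms of a locus (overlap of at least 15 bases on a strand) were also summed. Families, ratios and shares were tested with exact permutation tests (scipy 1.17.1), families on log2(CPM + 1) and ratios for pairs with at least 50 counts each. The fit was also run on simulated counts. These held no gaps in listing and no effect of run, so the fit was not tested for either.

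The members, lists and tests were chosen with earlier results of these data known. The rule for named miRNAs took the 10 known and 10 predicted with the highest totals, the 5 smallest p in each direction, those without overlap, those the study singled out, those sharing a locus or sequence with these, the isomiRs in ratios, those listed throughout 1 group only, and those past the threshold under any alternative. miRNAs of the 5H cluster and hvu-new44 lie outside it. Sequences were found for 47 of 61 known and all 81 predicted miRNAs. Alternatives were DESeq2 1.42.0, other library sizes, filters, merged loci, run and replicate terms, and leaving out each library.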

Additional observations from a re-analysis of the deposited data

How the results depend on the processing

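No miRNA passed an adjusted p of 0.05 under the other normalizations, filters, summed loci or the common divisor taken out of predicted counts. Nor did any pass with the run covariate or in DESeq2. Rc replicate 1, which was sequenced in both runs but has a single count column, was left out of the fit with the covariate. Leaving out 1 library gave 0 to 1 call, hvu-new28 without Lv replicate 3 and hvu-new69 without Hv replicate 3. The count of miRNAs bounded within 2-fold was 14. It was 11 without the repeats of known miRNAs, 8 with run as a covariate and 5 within run 2, both with fewer residual degrees of freedom. The count without overlap was 8, and 9 with library sizes from relative log expression. It was 5 on mapped-read library sizes, 33 within run 2 and 11 to 18 when a library was left out, where groups of 3 against 2 separate more easily. The total of known miRNAs differed by -0.35 (log2) and the share of predicted miRNAs by 2.52 percentage points within run 2, where Hv replicate 3, the library with the highest known level, stands alone. The values within run 2 of the bounds, the share and the overlaps, the common divisor and the summed loci of the overlaps were added after the data were seen. Same-numbered libraries did not deviate together (correlations of -0.44, -0.09 and 0.09 over 39 miRNAs). With the replicate block, edgeR called 0 miRNAs with 2 under an unadjusted p of 0.05, 13 lay within 2-fold, and the paired total of known miRNAs differed by -0.04. Of 44 named miRNAs, 20 changed the sign of their uncalled fold change under at least 1 alternative, as did 6 of 13 families and 5 of 8 ratios, and the cause was not tested. Of the miRNAs with counts in both groups and a mean under 20 counts per library, 0 were bounded within 2-fold. At a mean of 5 to 20 counts the SE ran from 0.46 to 2.24, and the part of depth in this was not tested.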
